A study of Mus musculus with 19 samples.

Results

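The 34 genes described here carry out glycolysis or are known to be induced when oxygen is low, and they were found by name: a fixed list of symbols was looked up among the 34432 genes of the bone marrow expression table. The symbols of 33 of them are in the table, and Ero1l was found by its Ensembl ID (ENSMUSG00000021831) under its other symbol, Ero1a. Aldoa has 2 rows, so the 34 genes fill 35 rows. Of the 34 genes, 33 averaged 10 or more normalized counts across the 19 libraries and were tested. Adm, which encodes the peptide adrenomedullin, ranged from 0 to 21.9 with a mean of 7.06 and was not tested, and neither was a second Aldoa row, which stayed at or below 8.95.

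Messenger RNA was sequenced from marrow flushed out of the long leg bones of 8-week-old C57/BL6 mice, untreated, in 5 genotypes. The groups were wild type (WT, n = 3), Vav-iCre alone (VAV, n = 4), Vav-iCre together with floxed Cdk8 (CDK8KO, n = 4), a Cdk19 null allele without Cre (CDK19KO, n = 4), and floxed Cdk8 with Vav-iCre on the Cdk19 null background (DKO, n = 4). Vav-iCre expresses a recombinase in blood cells, so Cdk8 is targeted in blood cells, while the Cdk19 null allele is carried by every cell, stroma included. CDK8 and CDK19 are related kinases of Mediator, the complex through which transcription factors reach RNA polymerase II. The labels do not say that each library is a separate animal, and a p-value here weighs a difference only against the scatter of the libraries themselves, some of which may be technical. Marrow is a mixture, and in such bulk samples fewer cells of a type cannot be told apart from less RNA per cell.

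Glycolysis turns glucose into pyruvate, and lactate dehydrogenase and the lactate exporter then let it run without oxygen. Neutrophils, an abundant cell type of marrow, depend heavily on it, and mature red cells, which have no mitochondria, depend on it wholly. When oxygen is plentiful, prolyl hydroxylases (Egln1, Egln3) mark the transcription factor HIF-1alpha (Hif1a) for destruction, and when oxygen is scarce HIF-1alpha binds a short core motif and raises many glycolytic genes. CDK8 has been described as a coactivator of such genes in cultured cells, which is background and not a result of these data.

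The promoters of 3 members are shown because the letters of the HIF core motif can be seen in them: Ldha, a classic HIF target, and Hk2 and Mxi1, the members that passed the test in a comparison described further on. Each is the RefSeq window of 300 bases, from 250 before to 50 after an annotated start, in GRCm38.p6. Lower case is the sequence 5′ to 3′ on the gene's strand, and capitals mark ACGTG or its reverse complement CACGT.

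Hk2 (chr6:82774405-82774704, minus strand): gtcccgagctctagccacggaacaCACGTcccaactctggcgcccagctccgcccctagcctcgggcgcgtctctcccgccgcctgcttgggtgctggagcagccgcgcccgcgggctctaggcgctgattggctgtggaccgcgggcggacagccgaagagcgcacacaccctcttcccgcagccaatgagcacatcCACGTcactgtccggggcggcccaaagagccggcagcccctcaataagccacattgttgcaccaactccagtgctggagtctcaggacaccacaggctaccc
Ldha (chr7:46845554-46845853, plus strand): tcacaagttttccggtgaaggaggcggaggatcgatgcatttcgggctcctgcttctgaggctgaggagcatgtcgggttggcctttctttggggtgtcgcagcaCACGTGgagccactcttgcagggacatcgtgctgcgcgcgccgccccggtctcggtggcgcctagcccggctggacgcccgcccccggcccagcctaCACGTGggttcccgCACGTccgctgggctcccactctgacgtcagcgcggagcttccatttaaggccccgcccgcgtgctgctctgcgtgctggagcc
Mxi1 (chr19:53329163-53329462, plus strand, 1 of its 3 windows): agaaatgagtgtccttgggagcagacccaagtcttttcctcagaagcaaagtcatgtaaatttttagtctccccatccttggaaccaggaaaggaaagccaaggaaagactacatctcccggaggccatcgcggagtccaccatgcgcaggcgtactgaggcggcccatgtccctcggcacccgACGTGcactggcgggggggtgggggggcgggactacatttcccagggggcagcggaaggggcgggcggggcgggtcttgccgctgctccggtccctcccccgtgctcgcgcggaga

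Hk2 holds 2 such matches and Mxi1 1 in the window shown. The 5 matches in the Ldha window shown include 2 CACGTG palindromes, each of which reads as the motif on both strands and so counts for 2. The other Ldha window (chr7:46846832-46847131) held 0 matches. RefSeq windows were matched to 32 of the 34 members, 48 windows in all. The motif ACGTG, on either strand, was found in 28 of the 48 member windows (58.3%), against 19.6% of all 32851 windows of the same length. Counted by gene, 24 of 32 members (75.0%) had it in at least 1 window, against 21.8% of 27025 genes. With GCGTG allowed as well, the share was 93.8% of members and 46.7% of all genes. The palindrome CACGTG, which contains ACGTG, was in 10.4% of member windows and 7.15% of all windows. The list was drawn up from known glycolytic and oxygen-responsive genes, so these shares describe it and are not a result of the genotypes.

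Libraries held 14881701 to 33010241 reads assigned to genes, and a count of 3 reads, the most that a count of 0 allows, was worth 2.188 to 4.496 normalized counts, for counting error only. Cdk19 fell to 34.5% of WT in CDK19KO (log2 fold change -1.53, limma adjusted p = 9.8e-07) and to 32.0% of VAV in DKO (-1.63, adjusted p = 5.5e-08; exact permutation p = 0.0286 for each, two-sided, the smallest these sizes allow). Cdk8 stood at 102% of VAV in the libraries labelled CDK8KO (log2 fold change 0.02; exact permutation p = 0.886) and at 80.3% of VAV in DKO (-0.29; exact permutation p = 0.143). A whole-gene count does not check the deletion of a floxed exon, so the labels of the Cdk8 deletion are not checked here and any direction drawn from them rests on the labels. Markers of late neutrophils took 3.15 to 6.27% of all values and all 23 of them were above 0 in every library. Red cell precursor markers, 28 in all, took 0.186 to 1.73% in 17 libraries but 3.66% in VAV replicate 3 and 4.22% in CDK8KO replicate 1. Skeletal muscle markers were highest in replicate 4 of CDK19KO (0.134%) and replicate 4 of DKO (0.0373%), where all other libraries had 0.00053 to 0.00221%, with 10 of the 16, Acta1 and Ckm among them, at 0 in at least 1 library.

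The 33 tested members spanned a wide range of levels, with enzymes of glycolysis at the top. Together the members took 0.466 to 0.792% of all values in a library. Per kilobase of exon, the highest mean level over the 19 libraries was that of Gapdh, which oxidises glyceraldehyde 3-phosphate, at 6908 normalized counts per kb (range 4649 to 10819). Pgam1, the phosphoglycerate mutase, followed at 3409 and Gpi1, which isomerises glucose 6-phosphate, at 3026. Aldoa (2313), the mitophagy receptor Bnip3l (2162), Pgk1 (2099.9), Pkm (2051) and Eno1 (1925) came next. Of the hexokinases, which trap glucose in the cell, Hk3 had 806 per kb, Hk2 325 and Hk1 237. The length used is that of all annotated exons of a gene merged, which can exceed that of the transcripts present. Before division by it, Hk1 had a mean of 2022 normalized counts and Hk2 1939, so their order rests on that length. Of the glucose transporters, Slc2a3 (GLUT3) had 777 per kb and Slc2a1 (GLUT1) 164. The lowest were Ankrd37, an ankyrin-repeat protein, at 10.2 and the aldolase isozyme Aldoc at 7.04. The ranges over libraries overlapped for 31 of the 32 pairs of neighbours in this order, and the exception was the step from Pfkl (65.3) to Ankrd37. Gapdh, Eno1, Ldha, Pgam1, Tpi1, Pgk1 and Aldoa have near-identical processed copies elsewhere in the genome, so their levels are uncertain to the extent that reads were shared with them.

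**Figure D1:**
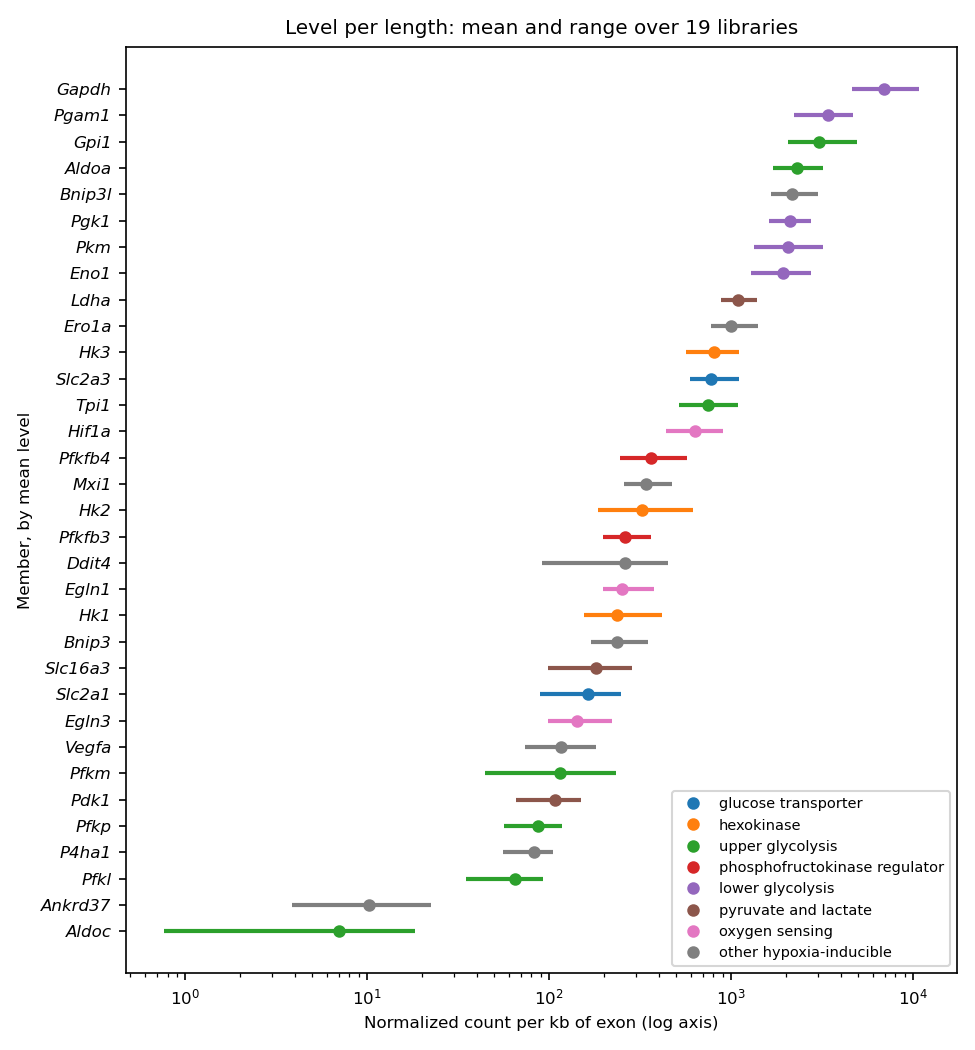
Mean level of each of the 33 tested members over the 19 libraries in normalized counts per kilobase of exon (points, log axis), with the lowest and highest library as bars and the role in colour. Gapdh is highest at 6908 per kb and Aldoc lowest at 7.04, and the bars of 31 of the 32 neighbouring pairs overlap.

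Members varied within genotypes as well as over the whole set. Over all 19 libraries the highest held 1.57 times the lowest for Ldha and 23.9 times for Aldoc, with a median of 2.12 over the tested members. Within the genotype where a member varied most, the highest library held 1.39 times the lowest for Mxi1 and 11.8 times for Aldoc, with a median of 1.85. In VAV, replicate 3, the library rich in red cell markers, was the lowest of its group for 24 of the 33 members. CDK8KO replicate 1, the other such library, was the lowest of its group for 15. The 2 libraries were both lowest for 14 members: Aldoa, Bnip3, Egln1, Ero1a, Gpi1, Hif1a, Hk2, Ldha, Pfkfb3, Pfkfb4, Pgam1, Pgk1, Pkm and Slc2a1. They were both highest for 4, Ankrd37, Hk1, Pdk1 and Pfkm. Hk1 is the main hexokinase of red cells. Late neutrophil markers were at their lowest of the group in the same 2 libraries, with 3.92% in VAV replicate 3 against 4.91 to 6.27% in the other VAV libraries and 3.33% in CDK8KO replicate 1 against 5.28 to 5.85%. The part of these markers in the member values was not tested, and counts of calls are given below with and without the 2 libraries.

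**Figure D2:**
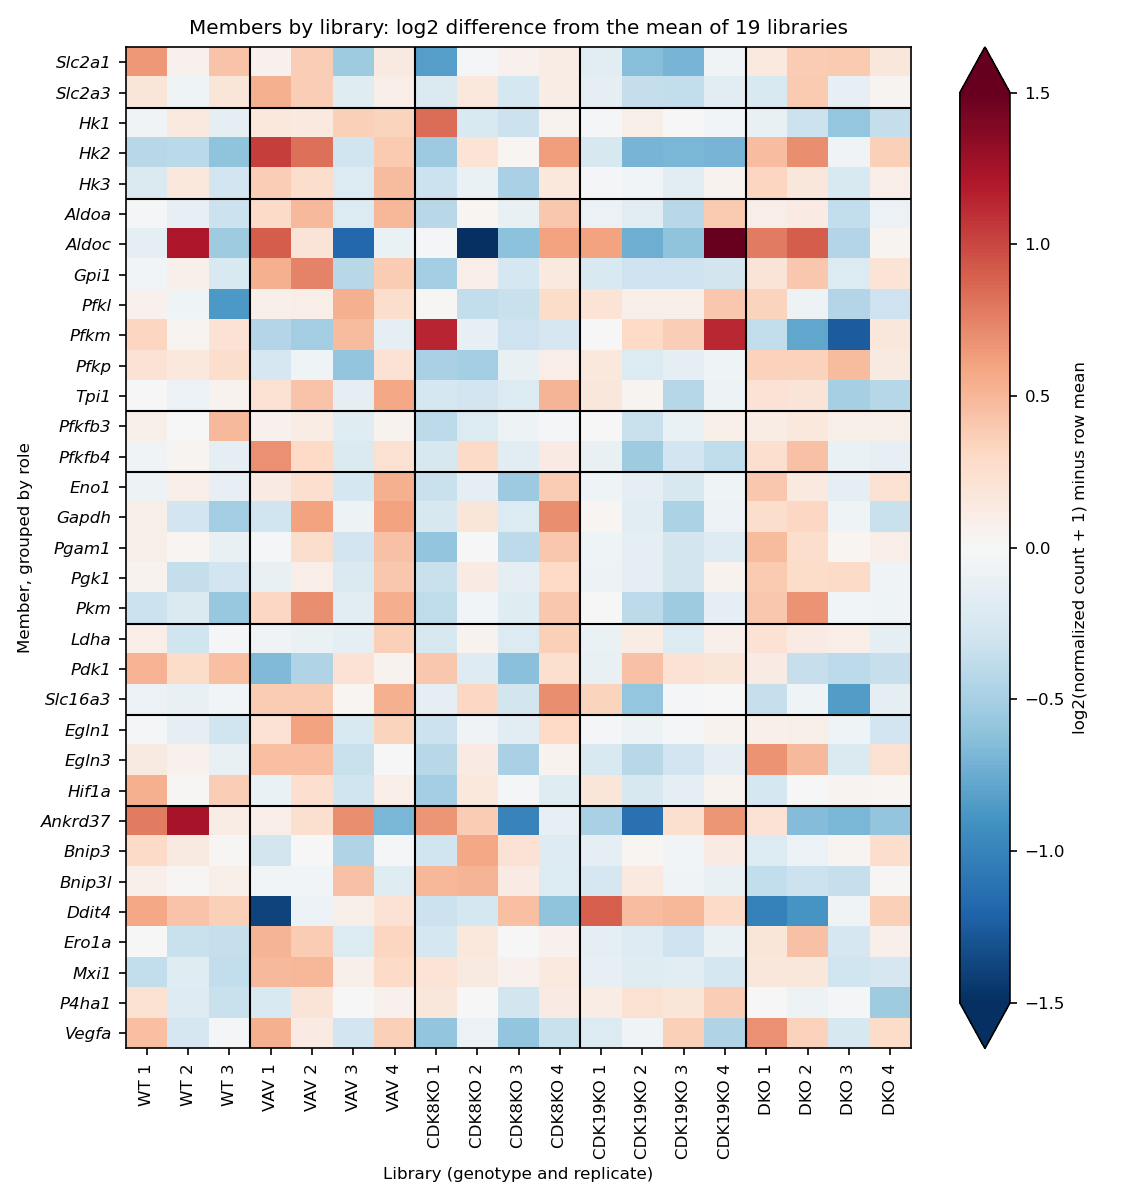
Each tested member (rows, grouped by role) in each library (columns), as log2(normalized count + 1) minus the row's mean over the 19 libraries. VAV replicate 3 is the lowest VAV library for 24 of 33 members, while Hk1 and Pfkm are highest of their groups there and in CDK8KO replicate 1.

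**Figure D3:**
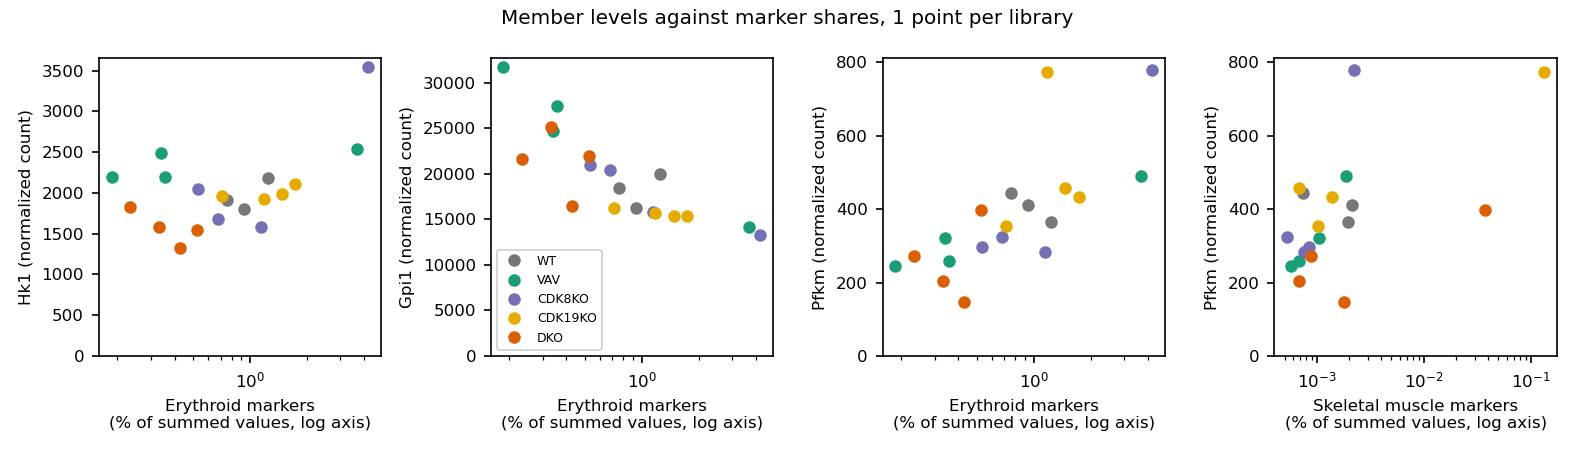
Normalized counts of Hk1, Gpi1 and Pfkm (vertical axes) against the share of all values taken by red cell precursor markers, and of Pfkm against skeletal muscle markers (log axes, percent), 1 point per library. VAV replicate 3 and CDK8KO replicate 1 lie far right at 3.66 and 4.22% red cell markers, and CDK19KO replicate 4 far right at 0.134% muscle markers.

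No member passed the test in any of the 7 comparisons planned between genotypes. In DKO against VAV, which asks what the loss of both kinases does beyond Cre itself, 0 of 33 members passed (limma, adjusted p under 0.05), where 1.52% of all 13976 tested genes did. At an unadjusted p under 0.05 there were 4 members (12.1%; 1 higher and 3 lower), against 15.7% of all genes, a share near that background. Of the 33, 23 were lower in DKO, and the median log2 fold change of the 33 was -0.13, against -0.01 over all genes. With single libraries left out that median ran from -0.24 (without DKO replicate 2) to -0.035 (without VAV replicate 2). In CDK8KO against VAV 0 members passed, as did 0 of all genes (0%). Here 3 members (9.09%, all lower) had an unadjusted p under 0.05, against 8.31% of all genes, and 28 of 33 were lower with a median of -0.20, which was -0.074 with the red cell marker level as a covariate. In CDK19KO against WT 0 members passed, against 0.0215% of all genes, and 4 (12.1%; 1 higher and 3 lower) had an unadjusted p under 0.05, against 3.07%. The members were evenly divided there, 16 higher and 17 lower, with a median of -0.06. edgeR and DESeq2, run on the recovered reads, also called 0 members in these 3 comparisons.

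The other planned comparisons gave the same count of 0 with limma. In VAV against WT, which shows what the Cre transgene alone goes with, 0 of 33 members passed, against 0.0930% of all genes, and 8 (24.2%; 6 higher and 2 lower) had an unadjusted p under 0.05, against 14.8%. DESeq2 called 3 of them, Hk2, Mxi1 and Pkm, against 2.30% of all genes, and edgeR 0. DKO against CDK8KO had 0 members, against 1.70% of all genes, and 7 (21.2%; 4 higher and 3 lower) at the unadjusted p, against 16.1%. DESeq2 called Pfkp and Bnip3l in it, against 5.09% of all genes, and edgeR 0. DKO against CDK19KO, which differ in both Vav-iCre and Cdk8, had 0 members, against 2.00%, and 12 (36.4%; 9 higher and 3 lower) at the unadjusted p, against 15.6%. DESeq2 called Hk2 there, against 4.30%, and edgeR 0. The interaction, which is the difference DKO minus CDK8KO less the difference CDK19KO minus WT, had 0 members, against 0.150%, and 6 (18.2%; 5 higher and 1 lower) at the unadjusted p, against 8.64%, and edgeR and DESeq2 also called 0. No member had a log2 fold change beyond 1 in either direction in the 7 comparisons other than DKO against CDK19KO (Pfkm, -1.01) and the interaction (Slc2a1, 1.21). For DKO against VAV a member's standard error had a median of 0.18 (log2), so a difference of about that size could not pass with these libraries. Larger differences did not pass either, such as Slc16a3 at -0.68 ± 0.21 (limma adjusted p = 0.136). In simulated counts, the same contrast recovered 77% of 100 genes above the lowest levels that were changed by 1 (log2). The count of 0 thus does not exclude differences well above 0.18. Comparisons with the same control group share its libraries, so DKO and CDK8KO against VAV, and CDK19KO and VAV against WT, are not independent.

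**Figure D4:**
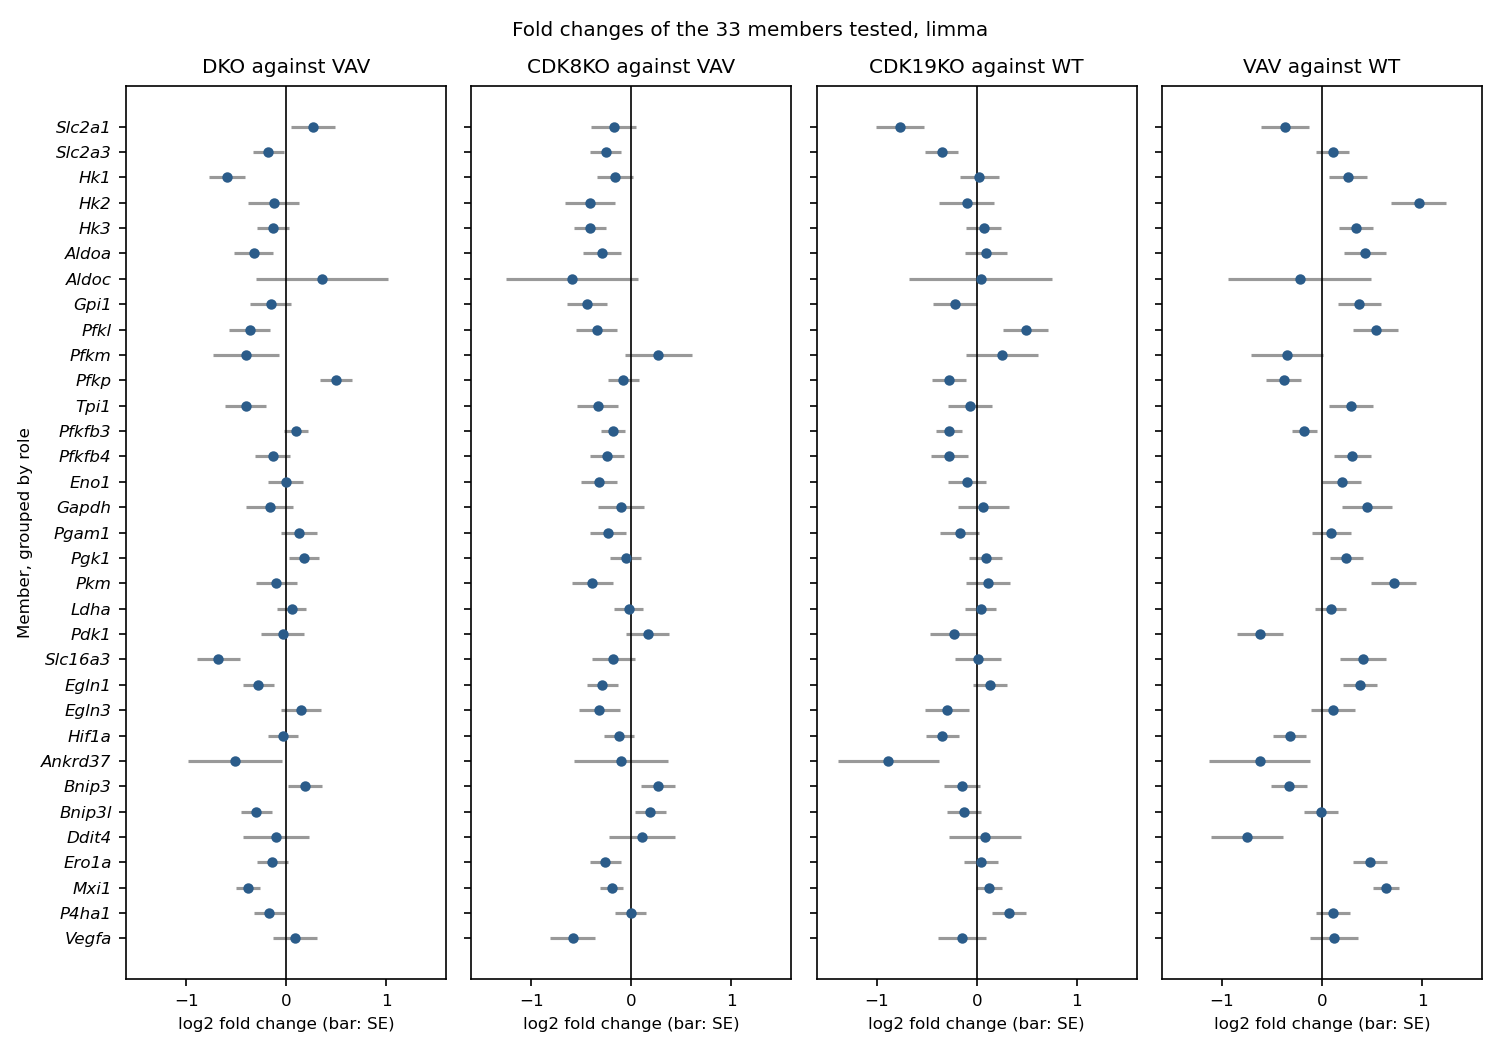
Log2 fold change of each tested member (points) with its standard error (bars) from the limma fit, in 4 comparisons. Most points lie left of 0 in CDK8KO against VAV (28 of 33 lower), and the farthest right in VAV against WT is Hk2 at 0.97.

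Without VAV replicate 3 and CDK8KO replicate 1, the counts changed in 3 of these comparisons. In VAV against WT 7 members (21.2%) passed with limma, Hk2, Ero1a, Mxi1, Egln1, Pkm and Gpi1 higher and Pdk1 lower, against 7.58% of all genes. In DKO against VAV 2 (6.06%) passed, Hk1 and Mxi1, both lower, against 2.75%. In DKO against CDK19KO 3 (9.09%) passed, Hk2 and Slc2a1 higher and Pfkm lower, against 6.30%. The count stayed at 0 in CDK19KO against WT, the interaction, and CDK8KO against both VAV and DKO. VAV had 3 and CDK8KO 3 libraries in these fits.

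Of the glucose transporters, both were lower in CDK19KO than in WT, but neither passed. Slc2a1, which encodes the transporter GLUT1, had 868, 577 and 744 normalized counts in the 3 WT libraries. The 4 CDK19KO libraries held 494, 355, 339.9 and 534. All 4 lay below the lowest WT library, and the log2 fold change was -0.77 ± 0.24 (± SE, limma adjusted p = 1.0). DKO stood higher again, with 611, 723, 728 and 622, above all CDK19KO libraries, and the fold change of DKO against CDK19KO was 0.66 ± 0.22 (limma adjusted p = 0.145). Its interaction term was the largest of any member at 1.21 ± 0.33 (limma adjusted p = 0.233). VAV held 581, 715, 381 and 606 and CDK8KO 312, 540.4, 578 and 598, both overlapping WT. Slc2a3, the high-affinity transporter GLUT3, ranged from 4302 to 8027 over the 19 libraries, with a fold change of -0.35 ± 0.17 in CDK19KO against WT (limma adjusted p = 1.0).

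The hexokinases, which phosphorylate glucose, all had higher means in VAV than in WT and lower means in DKO and CDK8KO than in VAV, and none passed with limma in these comparisons. Hk1, which binds to mitochondria, had 2196, 2191, 2533 and 2487 normalized counts in the 4 VAV libraries. The DKO libraries held 1831, 1584, 1323 and 1544. Every DKO library lay below every VAV library, and the log2 fold change was -0.59 ± 0.18 (± SE, limma adjusted p = 0.128), the smallest unadjusted p of any member in that comparison. WT held 1907, 2187 and 1803 and CDK19KO 1956, 2107, 1988 and 1921, between the DKO and VAV means. CDK8KO held 3539, 1685, 1584 and 2049.6, and its replicate 1, the library with the most red cell markers, stood alone at the top of all 19. Leaving out the red-cell-rich libraries, the fold change of DKO against VAV was -0.55 and passed.

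Hk2, the inducible hexokinase of proliferating cells (chromosome 6, 82725025 to 82774454 in GRCm38), had 1345, 1360.2 and 1188 normalized counts in WT and 3698, 3187, 1468 and 2369 in VAV. All 4 VAV libraries lay above all WT libraries, and the lowest of them was the red-cell-rich replicate 3. The log2 fold change was 0.97 ± 0.27 (limma adjusted p = 0.14), a difference that DESeq2 called. CDK19KO held 1528, 1111, 1122 and 1113 and differed from WT by -0.10 ± 0.27 (limma adjusted p = 1.0). Like VAV, the other genotypes with Cre were spread more widely than CDK19KO. CDK8KO held 1233, 2069, 1836 and 2772 and DKO 2480.0, 2924, 1733 and 2308. Hk3, a hexokinase prominent in myeloid cells, had 3783, 3523, 2528 and 4053 in VAV and 2338, 2737, 2095 and 3262 in CDK8KO. The 2 groups overlapped, and the fold change was -0.41 ± 0.16 (limma adjusted p = 0.586). It had 2513, 3253 and 2402 in WT, 2863, 2850.5, 2591 and 3027 in CDK19KO and 3659, 3301, 2503 and 3128 in DKO. With the red cell marker level as a covariate, the fold change of CDK8KO against VAV was -0.26.

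In the upper, energy-investing steps, 6 of 7 members were lower in CDK8KO than in VAV and 5 of 7 were lower in DKO than in VAV, and none passed. Gpi1 had 27481, 31759.7, 14171 and 24672 normalized counts in VAV and 13236, 20384, 15795 and 20924 in CDK8KO. The groups overlapped because VAV replicate 3 lay below all CDK8KO libraries but replicate 1. The log2 fold change was -0.44 ± 0.20 (± SE, limma adjusted p = 0.586). It was -0.69 without VAV replicate 3 and -0.18 with the red cell marker level as a covariate. WT held 18441, 19969 and 16239, CDK19KO 16216, 15326, 15323 and 15687 and DKO 21648, 25193, 16517 and 21945. Of the phosphofructokinase subunits, which catalyse the committed step, the liver type Pfkl had 444, 406 and 233 in WT and 490.3, 454, 451 and 565 in CDK19KO. Every CDK19KO library was above every WT library, with a fold change of 0.49 ± 0.22 (limma adjusted p = 1.0), and WT replicate 3 was the lowest of all 19 libraries. Without that library the fold change was 0.20. VAV held 449, 457, 614 and 510.2, CDK8KO 429, 329, 337 and 514 and DKO 535, 404, 314 and 343. The platelet type Pfkp ranged from 755 to 1582 and had the highest fold change of any member in DKO against VAV, 0.50 ± 0.16 (limma adjusted p = 0.138), but -0.38 ± 0.17 in VAV against WT. The 15 markers of megakaryocytes and platelets had medians of -1.21 and 0.02 in these 2 comparisons, and their part in Pfkp was not tested.

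In every genotype but WT, the muscle type Pfkm was highest in a library rich in markers of red cells or muscle. It had 354, 434, 457 and 774 normalized counts in CDK19KO, where replicate 4, the library with the most muscle markers, was highest. It had 779, 324, 283 and 297 in CDK8KO, where replicate 1, the library with the most red cell markers, was highest. VAV held 260, 246, 491 and 322, with the red-cell-rich replicate 3 highest. In DKO it had 272, 205, 148 and 397, with replicate 4, the other muscle-rich library, on top. That library also had the most red cell markers in DKO, 0.528%. WT held 443, 364 and 412 of Pfkm. There replicate 1 was highest, with the lowest shares of WT in red cell (0.761%) and muscle (0.000747%) markers. The aldolase Aldoa ranged from 4941 to 9309, with 8654 in CDK19KO replicate 4 against 4956 to 6190 in the other CDK19KO libraries. Aldoc ranged from 2.50 to 59.7, with its maximum of 59.7 in the same library. DKO replicate 4 did not stand out for either aldolase. It held 6202 of Aldoa, where DKO ranged from 5115 to 7196, and 19.5 of Aldoc, where DKO ranged from 13.7 to 36.4. The highest library of all for Aldoa was VAV replicate 4. The part of muscle RNA in these values was not tested. The triose phosphate isomerase Tpi1 ranged from 1427 to 3017, with fold changes of -0.41 ± 0.20 in DKO and -0.34 ± 0.20 in CDK8KO against VAV (limma adjusted p = 0.345 and 0.616).

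The enzymes that make and break fructose 2,6-bisphosphate, the activator of phosphofructokinase, showed no difference that passed in the planned comparisons. Pfkfb3, whose kinase activity prevails, had 2081, 1966 and 2744 normalized counts in WT and 1952, 1554, 1837 and 2079.8 in CDK19KO. The 2 groups overlapped, and the log2 fold change was -0.28 ± 0.13 (± SE, limma adjusted p = 1.0). Without WT replicate 3 it was -0.13. In the Cre groups VAV held 2056, 2126, 1732 and 2042, CDK8KO 1492, 1709, 1866 and 1929 and DKO 2116, 2194, 2093 and 2083. The DKO libraries lay close together, within the range of WT. Pfkfb4 ranged from 1197 to 2809, highest in VAV replicate 1 and lowest in CDK19KO replicate 2.

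All 5 members of the lower, energy-yielding steps had higher means in VAV than in WT and lower fitted levels in CDK8KO than in VAV, and none passed with limma. Pkm, the pyruvate kinase outside liver and red cells, had 7902, 8480.0 and 6669 normalized counts in WT and 12281, 16008, 8774 and 14412 in VAV. Every VAV library was above every WT library, and the log2 fold change was 0.72 ± 0.22 (± SE, limma adjusted p = 0.166). DESeq2 called this difference. CDK8KO held 7607, 9651, 8709 and 13100.0, CDK19KO 9951, 7531, 6837 and 9035 and DKO 13090.5, 15833, 9575 and 9475. DKO replicates 1 and 2 lay above all WT and CDK19KO libraries, while replicates 3 and 4 lay within the CDK19KO range. Gapdh ranged from 19214 to 44715, Eno1 (enolase) from 6955 to 14763, Pgam1 from 4401 to 9224 and Pgk1, which makes the first ATP of the pathway, from 3635 to 6149. Their fold changes in VAV against WT were 0.45 ± 0.25, 0.19 ± 0.19, 0.09 ± 0.20 and 0.24 ± 0.17 in the same order, and none had an adjusted p (limma) under 0.05. Marker lists of blood cells moved in the same comparisons. In VAV against WT the median log2 fold change was 0.41 over 23 late neutrophil markers, 0.37 over 12 early granulocyte markers and -0.59 over 28 red cell precursor markers. In CDK8KO against VAV the medians were -0.14, -0.43 and 1.05 in the same order. Late neutrophil markers took 3.62 to 4.54% of all values in WT, 3.92 to 6.27% in VAV and 3.33 to 5.85% in CDK8KO. Early granulocyte markers took 0.343 to 0.467%, 0.296 to 0.68% and 0.222 to 0.597% in that order, and red cell markers 0.761 to 1.24%, 0.186 to 3.66% and 0.533 to 4.22%. Their part in the differences of the glycolytic genes was not tested.

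Among the genes that handle pyruvate and lactate, Slc16a3, the lactate exporter MCT4, was lower in DKO than in VAV without passing. It had 1216, 1218, 959 and 1352 normalized counts in VAV. The DKO libraries held 736, 892, 523 and 845. All 4 DKO libraries lay below all VAV libraries, and the log2 fold change was -0.68 ± 0.21 (± SE, limma adjusted p = 0.136), the lowest of any member in that comparison. WT, with 884, 866 and 907, was tightly grouped and below all VAV libraries. CDK8KO held 849, 1162, 775 and 1517 and CDK19KO 1182, 625, 914 and 938, both overlapping VAV and DKO. Ldha, the lactate dehydrogenase subunit with 5 motif matches in the promoter shown above, had the smallest ratio of highest to lowest library of the tested members (1.57-fold), from 2932 to 4611. Its fold changes were 0.05 ± 0.14 in DKO against VAV, -0.03 ± 0.14 in CDK8KO against VAV and 0.04 ± 0.16 in CDK19KO against WT. Pdk1, the kinase that keeps pyruvate out of mitochondria, ranged from 512 to 1159 and had a fold change of -0.62 ± 0.23 in VAV against WT (limma adjusted p = 0.23).

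The oxygen sensors showed no change that passed. Hif1a ranged from 2592 to 5330.1, with a mean of 4618 ± 804 in WT (SD, n = 3), and, with 4 libraries each, 3587 ± 347 in DKO, 3625 ± 464 in CDK19KO, 3405 ± 649 in CDK8KO and 3695 ± 601 in VAV. The 5 groups overlapped. HIF-1alpha is controlled mainly as a protein, which was not measured. Egln1, the main prolyl hydroxylase, ranged from 711 to 1352 and had fold changes of 0.38 ± 0.17 in VAV against WT and -0.28 ± 0.16 in DKO against VAV (limma adjusted p = 0.302 and 0.396). Egln3, itself induced by low oxygen, ranged from 264 to 588, from CDK8KO replicate 3 up to DKO replicate 1.

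Of the other hypoxia-inducible members, Mxi1, a repressor that opposes MYC (chromosome 19, 53310518 to 53375810 in GRCm38), had the smallest unadjusted p of any member in VAV against WT. It had 1771, 2019.6 and 1774 normalized counts in WT and 3204, 3237, 2410.5 and 2787 in VAV. All VAV libraries lay above all WT libraries, and they differed by 0.64 ± 0.13 on the log2 scale (± SE, limma adjusted p = 0.0659). In the planned comparisons only Hk2 in DKO against CDK19KO had a smaller adjusted p among the members (0.94 ± 0.25; limma adjusted p = 0.0627). CDK8KO held 2639, 2514, 2392 and 2530.3, close together and above all WT libraries. CDK19KO held 2101, 2017, 2052 and 1903, overlapping WT. DKO held 2589.6, 2579.6, 1866 and 1918, in which replicates 1 and 2 lay in the range of the other Cre groups and replicates 3 and 4 in that of WT. The fold change of DKO against VAV was -0.39 ± 0.12 (limma adjusted p = 0.132).

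Vegfa, which encodes the growth factor of blood vessels, had the smallest unadjusted p of any member in CDK8KO against VAV and did not pass. It had 692, 521, 392 and 615 normalized counts in VAV and 316, 449, 316 and 378 in CDK8KO. The groups overlapped, because VAV replicate 3 lay below CDK8KO replicate 2, and the log2 fold change was -0.59 ± 0.22 (± SE, limma adjusted p = 0.586). DKO, which carries the same Cre and Cdk8 alleles, held 771, 609, 405 and 580.0. All DKO libraries but replicate 3 lay above all CDK8KO libraries, and DKO differed from VAV by 0.09 ± 0.22 (limma adjusted p = 0.883). WT held 655, 402 and 473 and CDK19KO 416, 460.5, 615 and 351, and both overlapped VAV and DKO.

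Ddit4, an inhibitor of mTORC1 under stress, ranged from 161 to 795 and had the lowest fold change of any member in VAV against WT, -0.75 ± 0.36 (limma adjusted p = 0.339). Ankrd37 ranged from 5.95 to 34.6, a level at which few reads carry each value, and had the lowest in CDK19KO against WT, -0.89 ± 0.51 (limma adjusted p = 1.0). The mitophagy receptors Bnip3 and Bnip3l ranged from 387 to 791 and from 6360.2 to 11658, the latter a gene that red cell precursors use to shed mitochondria. The oxidoreductase Ero1a (the listed Ero1l), which drives disulfide formation, ranged from 4075 to 7386 with a fold change of 0.48 ± 0.17 in VAV against WT (limma adjusted p = 0.204). The collagen prolyl hydroxylase subunit P4ha1 ranged from 231 to 433, with 0.32 ± 0.17 in CDK19KO against WT (limma adjusted p = 1.0).

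**Figure D5:**
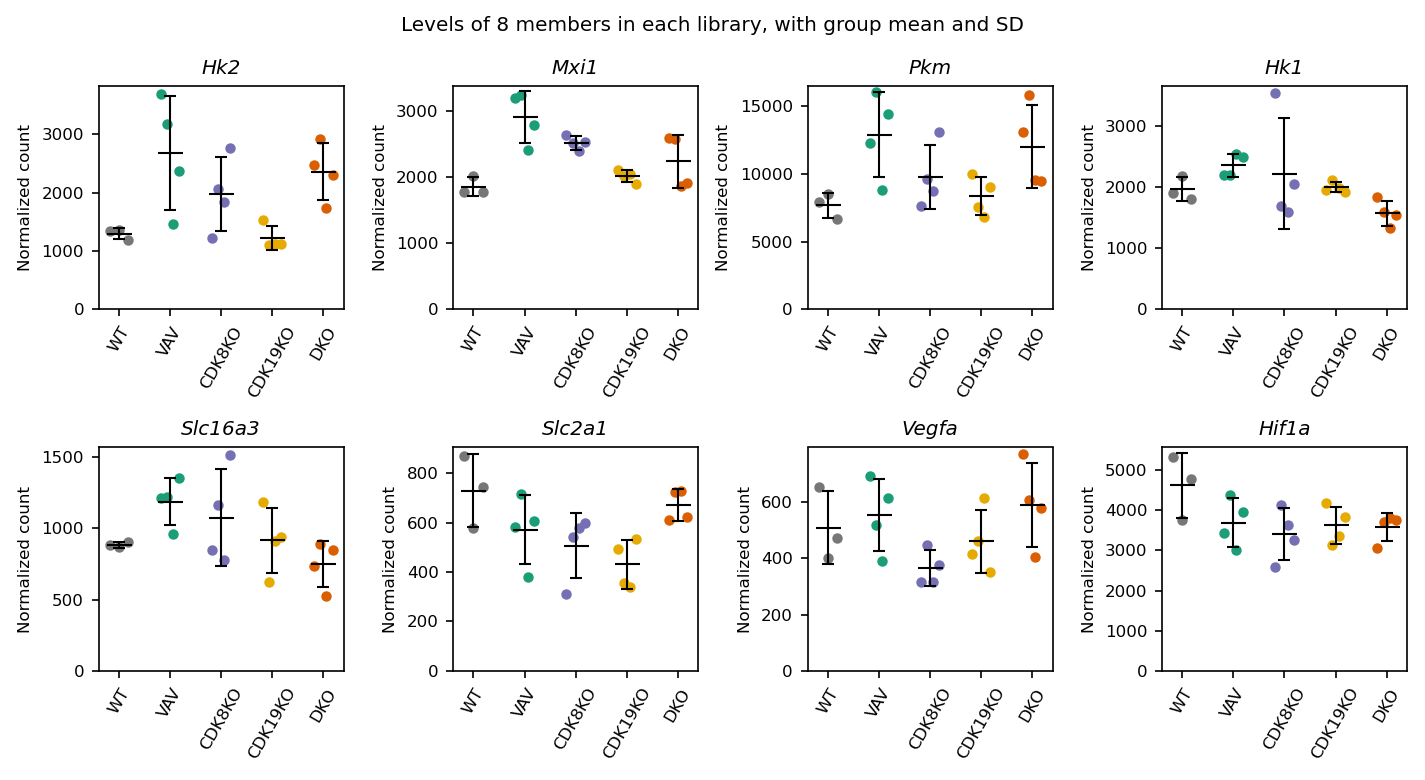
Normalized counts of 8 members in every library (points) by genotype, with the group mean and SD (bars); the vertical axes start at 0. For Hk2, all VAV libraries lie above all WT libraries and CDK19KO stays between 1111 and 1528, while Hif1a overlaps across the 5 groups.

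Since 3 genotypes carry Vav-iCre (VAV, CDK8KO and DKO, 12 libraries) and WT and CDK19KO do not (7 libraries), the mean of the former was also compared with the mean of the latter, a comparison added after the values had been seen. Hk2 and Mxi1 were higher in the genotypes with Cre, and these were the 2 members of 33 that passed, against 1.97% of all genes. For Hk2 the libraries without Cre lay between 1111 and 1528 (median 1188) and those with Cre between 1233 and 3698 (median 2339). Of the 12 with Cre, 10 were above all 7 without, and the other 2 were the red-cell-rich VAV replicate 3 and CDK8KO replicate 1. The log2 difference was 0.84 ± 0.17, or 1.79-fold (± SE, limma adjusted p = 0.0155). For Mxi1 the libraries without Cre lay between 1771 and 2101 (median 2017) and those with Cre between 1866 and 3237 (median 2555). Again 10 of 12 were above all 7, and the exceptions were DKO replicates 3 and 4. The log2 difference was 0.39 ± 0.08, or 1.31-fold (limma adjusted p = 0.0171).

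Among the 33, 9 members (27.3%; 6 higher and 3 lower) had an unadjusted p under 0.05 in this comparison, against 17.7% of all genes, and the median log2 difference was 0.08. edgeR also called 2, against 2.04% of all genes. DESeq2 called 5, Hk2, Mxi1, Pkm, Ero1a and Ddit4, against 5.77%. Pkm (0.50 ± 0.14, limma adjusted p = 0.066), Ddit4 (-0.79 ± 0.22, 0.0701) and Pdk1 (-0.46 ± 0.15, 0.0989) did not pass with limma. For Ddit4, 10 of the 12 libraries with Cre lay below all 7 without, from 161 to 582 (median 377) against 518 to 795 (median 585). Without the 2 red-cell-rich libraries 10 members (30.3%) passed, against 13.9% of all genes. Both calls depended on which libraries were in the fit. Without WT replicate 3 neither passed (limma adjusted p = 0.0639 for Hk2 and 0.0693 for Mxi1), without WT replicate 1 Mxi1 did not (0.0540), and without the 2 muscle-rich libraries Hk2 did not (0.0565). In this comparison the median log2 difference was 0.30 over the late neutrophil markers, 0.16 over the early granulocyte markers and -0.57 over the red cell precursor markers, and their part in the member differences was not tested. Litter, batch and breeding line are not given in the labels, so Cre cannot be told apart from other differences between these mice.

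Of the wider pathway, 40 other genes of glycolysis and gluconeogenesis and 45 other genes of oxygen sensing or HIF response were tested. With limma none of these passed in CDK8KO against VAV, CDK19KO against WT, VAV against WT or the interaction. DESeq2 called 3 of them in VAV against WT, against 2.30% of all genes, and 1 in the interaction, against 0.701%. In DKO against VAV 2 of 40 and 2 of 45 passed, against the 1.52% of all genes given above. In DKO against CDK8KO 1 of 40 and 2 of 45 passed, against 1.70%. In DKO against CDK19KO 1 of 40 and 3 of 45 passed, against 2.00%, and with against without Cre 0 of 40 and 2 of 45, against 1.97%. Hif3a, a relative of Hif1a that can restrain it, fell by 1.77 on the log2 scale (limma adjusted p = 0.00238). It had 103, 80.2, 185 and 117 normalized counts in VAV, 80.4, 88.6, 81.0 and 93.4 in CDK8KO and 35.7, 36.4, 27.4 and 34.5 in DKO. All DKO libraries lay below all the others. WT, with 176, 169 and 439, and CDK19KO, with 188, 231, 185 and 146, had the highest means. Hif3a also fell in DKO against CDK8KO (-1.34, limma adjusted p = 0.0184), in DKO against CDK19KO (-2.44, 4.9e-05) and in genotypes with Cre against those without (-1.58, 2.5e-04).

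Hmox1, which degrades heme and is abundant in macrophages that clear red cells, fell in DKO against VAV, with a log2 fold change of -1.01 (limma adjusted p = 0.0154). The 24 monocyte and macrophage markers, a list that includes Hmox1 itself, had a median of -0.12 in that comparison. Together they took 0.425 to 0.664% of all values in DKO and 0.321 to 0.566% in VAV, and their part was not tested. Hmox1 had 1736, 2915, 2481 and 2115 normalized counts in DKO and 4711, 4793, 5858 and 3331 in VAV, with no overlap. Its means in WT (4991 ± 1011; SD, n = 3), CDK8KO (4592 ± 1066) and CDK19KO (5542 ± 1285; SD, n = 4 each) lay near that of VAV. It also fell in DKO against CDK8KO (-0.99, limma adjusted p = 0.0191) and against CDK19KO (-1.26, 0.00244). Fbp1, the gluconeogenic phosphatase, fell in DKO against VAV (-1.28, limma adjusted p = 0.0117), from 80.0 ± 20.8 to 32.5 ± 9.11 (SD, n = 4 each). VAV had the highest mean of the genotypes. The means of WT (51.6), CDK8KO (48.5) and CDK19KO (52.0) lay between those of DKO and VAV. Fbp1 did not pass in DKO against CDK8KO or against CDK19KO. Ldhc, the lactate dehydrogenase of testis, rose from 10.3 ± 4.93 to 34.9 ± 9.84 (1.73, limma adjusted p = 0.0242), a low level that CDK19KO shared at 29.0 ± 11.9. It also rose in DKO against CDK8KO (1.70, limma adjusted p = 0.0261).

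Pklr, the pyruvate kinase of liver and red cells, fell in DKO against CDK19KO (-1.47, limma adjusted p = 0.0291), from 931 ± 206 to 348 ± 139 (SD, n = 4 each). Selenbp1, a selenium-binding protein, also fell there (-0.89, limma adjusted p = 0.0421). The red cell marker share was 0.232 to 0.528% in DKO and 0.71 to 1.73% in CDK19KO, and its part in these 2 differences was not tested. Angptl4, an inhibitor of lipoprotein lipase, was lower in genotypes with Cre than in those without (-0.91, limma adjusted p = 0.0174), with 105 ± 17.9 in WT (SD, n = 3), and, with 4 libraries each, 123 ± 23.9 in CDK19KO, 60.3 ± 11.6 in DKO, 68.2 ± 18.7 in CDK8KO and 56.9 ± 24.1 in VAV. In the fits without the muscle-rich libraries the calls among these other pathway genes fell from 4 to 1 in DKO against VAV. The share of all genes called there fell from 1.52% to 0.730%. In DKO against CDK8KO the calls fell from 3 to 0, while the share of all genes fell from 1.70% to 0.658%.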

How the data were processed

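The authors deposited 1 table of normalized counts, a signal in which each library's gene counts are divided by a size factor; the submitters' processing notes name Salmon 1.4.0, DESeq2 and mm10, without saying what each did. Every value was a whole multiple of its library's step (tolerance 0.001 read), so whole reads were recovered for the count tests. Other steps of the authors are not given in the sources used here. Values were taken as log2(normalized count + 1), a scale that shrinks differences at low levels, and fitted with limma 3.58.1 (trend) in R 4.3.3 over the 13976 genes averaging 10 or more, with all 5 genotypes in 1 fit. P-values were adjusted over all tested genes (Benjamini-Hochberg) within each of 7 planned comparisons and 1 added later, and a gene passed under 0.05. After ± stands the SD of a level or the SE of a log2 difference. edgeR 4.0.16 (quasi-likelihood) and DESeq2 1.42.0 ran on the recovered reads. Other alternatives were scaling (TMM), pseudocount, filter, the replicate block, the groups fitted, single libraries left out, red-cell-rich or muscle-rich libraries left out, and the red cell marker level as a covariate.

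The members, pathway lists and markers were chosen with earlier results of these data known. Named with values in every library were members that passed, and the 3 with the smallest p in DKO against VAV, CDK8KO against VAV, CDK19KO against WT and VAV against WT; other members that the text describes that way (Pfkm) were chosen after their values were seen. Coordinates and exon lengths are from GENCODE vM21 (GRCm38), with all annotated exons of a gene merged. No 2 libraries of a genotype were duplicates (chi-square over degrees of freedom at least 14.67). The fit was tested on simulated data.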

Additional observations from a re-analysis of the deposited data

Results flagged for a closer look

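In a group of 4 libraries, a value was singled out when its gap to the nearest other exceeded the share of the whole range that Dixon's 95% critical value allows; chance does this in about 1 in 20 groups, and 8 of 140 groups of members met it. In CDK8KO, Pfkm stood at 779.3 normalized counts in replicate 1, the library richest in red cell markers, against 283.4 to 324.5 in the others, and Tpi1 at 2885 in replicate 4 against 1657 to 1752. In CDK19KO, Hk2 stood at 1528 in replicate 1 against 1111 to 1122, still below all VAV and DKO libraries but VAV replicate 3. In VAV, Ldha stood at 4611 in replicate 4 against 3280 to 3471. DKO replicate 1 held 3 such values: Pdk1 at 876.5 against 615.8 to 635.5, Hif1a at 3070.0 against 3710 to 3802, and Ankrd37 at 16.6 against 8.422 to 8.993. Bnip3l, which red cell precursors use to shed mitochondria, stood at 8314 in DKO replicate 4 against 6360 to 6535 in the other DKO libraries. The part of cell makeup in these values was not tested.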

How the results depend on the processing

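The share of all tested genes called in the same fit stands in parentheses after each count. With limma, 0 members passed in CDK8KO against VAV, CDK19KO against WT and the interaction under every alternative run. In DKO against VAV, 0 became 2 (2.75%) without the red-cell-rich libraries and 3 (4.31%) with the red cell level as a covariate (Mxi1, Slc16a3, Egln1). In VAV against WT, 0 became 7 (7.58%) without those libraries, 1 (0.308%) with the covariate, 3 (2.30%) with DESeq2, and 0 to 4 when single libraries were left out, with 4 (2.98%) without VAV replicate 3. In DKO against CDK8KO, DESeq2 called 2 (5.09%), and leaving out single libraries gave 0 to 2, with 2 (3.02%) without CDK8KO replicate 4. In DKO against CDK19KO, there were 2 (6.93%) with only those groups in the fit, 3 (6.30%) without the red-cell-rich libraries and 1 (4.30%) with DESeq2. For genotypes with against those without Cre, 2 became 1 (0.930%) without the muscle-rich libraries, where the Hk2 difference was 0.82, 10 (13.9%) without the red-cell-rich ones, 5 (5.77%) with DESeq2, and 0 to 8 when single libraries were left out. These were 0 (0.658%) without WT replicate 3, 1 (1.17%) without WT replicate 1, 4 (5.34%) without CDK8KO replicate 1 and 8 (5.70%) without VAV replicate 3. The median member log2 fold change moved with the covariate to -0.131 in DKO against CDK8KO and -0.0775 in the interaction. With single libraries left out it ran from 0.000306 to 0.145 in DKO against CDK8KO, from -0.113 to -0.000431 in CDK19KO against WT and from 0.0238 to 0.252 in the interaction.

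The other pathway genes called in DKO against VAV, 4, became 1 (0.708%) with only those groups in the fit, 1 (0.730%) without the muscle-rich libraries, 8 (4.31%) with the covariate, and 2 to 4 with single libraries left out, with 2 (0.830%) without DKO replicate 4. In DKO against CDK8KO, 3 became 0 (0.222%), 0 (0.658%) and 1 (1.5%) under the same settings, 6 (5.09%) with DESeq2, and 0 to 5 with single libraries left out. These were 0 (0.751%) without DKO replicate 4, 1 (0.995%) without DKO replicate 3 and 5 (3.02%) without CDK8KO replicate 4. In DKO against CDK19KO, 4 became 10 (6.93%) with only those groups, 2 (0.694%) without the muscle-rich and 11 (6.30%) without the red-cell-rich libraries, 8 (4.30%) with DESeq2, and 2 to 4 with single libraries left out, with 2 (0.851 to 1.35%) without any 1 CDK19KO library, or without DKO replicate 2 or 3. In VAV against WT, 0 became 13 (7.58%) without the red-cell-rich libraries, 3 (2.30%) with DESeq2, and 0 to 6 with single libraries left out, with 6 (2.98%) without VAV replicate 3. In the interaction DESeq2 called 1 (0.701%). With against without Cre, 2 became 27 (13.9%) without the red-cell-rich libraries, 11 (5.77%) with DESeq2, and 1 to 11 with single libraries left out, with 1 (0.658%) without WT replicate 3, 11 without VAV replicate 3 (5.70%) or CDK8KO replicate 1 (5.34%).

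The log2 fold change of Cdk8 in CDK8KO against VAV turned to -0.176 with the covariate and ran from -0.111 to 0.191 with single libraries left out. The replicate block moved the members called in VAV against WT to 1 (Mxi1; 0.129%) and the other pathway genes called with against without Cre to 4 (2.23%), moved those in DKO against CDK19KO from 4 to 3 (1.88%), and changed no other count of calls. The labels link libraries with the same number by that number alone. Of 36 such pairs, 6 deviated together with a correlation over 0.1 (range -0.274 to 0.306), which cannot show whether they shared a batch or litter. The cause of each change above was not tested. Depth limits Aldoc, Ankrd37 and Adm, whose values rest on few reads.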
